A study of Mus musculus with 8 samples.

Results

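Cholesterol synthesis and efflux was followed here through 35 mouse genes in dendritic cells sorted from the thymus. The genes were taken by symbol: 18 enzymes of the synthesis pathway, 4 regulators and carriers that act with the transcription factor SREBP2, and 13 receptors, transporters and lipid genes tied to the liver X receptors (LXR). RNA of 4 sorted populations was labelled with Cy3 and hybridised to 8 Agilent arrays of 1 colour: Sirpa-positive mature cells (arrays 1 and 6), Sirpa-positive immature cells (arrays 3 and 5), Sirpa-negative mature cells (arrays 2 and 8) and Sirpa-negative immature cells (arrays 4 and 7). Sirpa is an inhibitory receptor for CD47 whose presence divides thymic dendritic cells into subsets, and maturation is the switch by which a dendritic cell takes up its antigen-presenting state. The labels give no mouse strain, age or sex, name no sort marker besides Sirpa, and leave unsaid if the paired arrays of each group had separate mice or sorts behind them. The p-values therefore measure no more than how far these samples spread, which may be technical.

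Every level below is a log2 relative signal: the log2 of a probe's processed signal minus the 75th percentile of all probes on that array, so 0 means as bright as that percentile. Of the 35 genes, 34 had a probe that cleared background on each of the 2 arrays in 1 or more groups and were tested, beside 24171 genes or accessions in all. For 30 of the 34 the probe was well above background on all 8 arrays. The other 4 were Cyp51, Hsd17b7, Abca1 and Lpl, each dim on 1 or more Sirpa-negative arrays. Abca1 and Lpl met the filter through the Sirpa-positive groups alone, where they were high, so a subset difference was built into their being tested. The gene left out was Ch25h, the enzyme that makes the LXR ligand 25-hydroxycholesterol, whose probe lay between -6.40 and -4.32 and met the filter in no group. All tests are limma's moderated test with Benjamini-Hochberg adjustment over the 24171 genes, and a gene is said to rise, fall or differ where the adjusted p was under 0.05.

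Mammalian cells make cholesterol from acetyl-CoA by way of mevalonate, isoprenoids and squalene. When sterol in the endoplasmic reticulum runs low, SCAP escorts SREBP2 to the Golgi, where it is cut into an active factor that switches on most enzymes of the pathway, and INSIG proteins hold SCAP back when sterol is plentiful. In the opposite direction, oxysterols activate the LXR receptors, which induce transporters and lipid carriers that move cholesterol out of the cell, a programme best known from macrophages.

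Marker genes matched the sort labels. Sirpa stood at 3.95 to 4.68 on the 4 Sirpa-positive arrays and at -2.24 to -0.52 on the 4 Sirpa-negative arrays. The general dendritic cell genes Flt3, Itgax and Zbtb46 were well above background on all 8 arrays, and the chemokine receptor Ccr7, which is gained on maturation, stood at 5.21 to 6.20 on mature and at -1.45 to 1.14 on immature arrays. Of 7 maturation genes 6 rose in each subset, beside 4.35% of all genes in Sirpa-positive and 9.22% in Sirpa-negative cells. Of 6 general dendritic cell genes 0 rose and 0 fell on maturation by limma, with 0 at an unadjusted p under 0.05. The 8 arrays lay in 2 rows of 1 slide, with 1 array of every group in each row. The share of spots well above background was 52.9% to 57.9% on row 2 arrays and 61.9% to 65.5% on row 1 arrays, and no spot was saturated. The 75th percentile of the processed signal lay between 147.3 and 313. The plot of summed marker levels shows the lists for other cell types, whose values are given beside the results they move with.

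**Figure D1:**
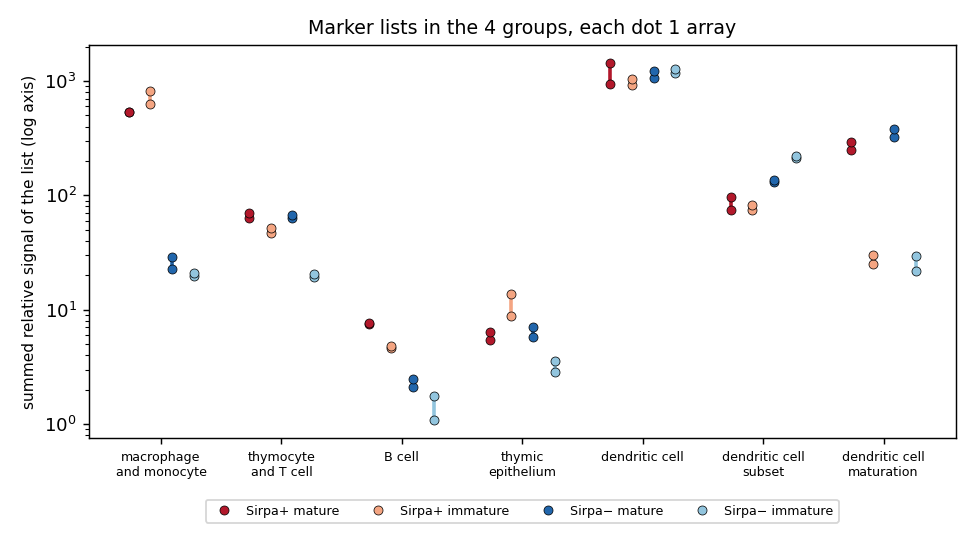
Summed relative signal (linear values added over the kept genes of a list, on a log axis) of 7 marker lists in the 4 groups; each dot is 1 array and the line joins the 2 arrays of a group. The macrophage and monocyte sum was 532 to 817 on Sirpa-positive and 19.7 to 28.8 on Sirpa-negative arrays, and the thymocyte and T cell sum was lowest in Sirpa-negative immature cells (19.3 to 20.6). A sum leans on its brightest gene. This is Cd4 in the thymocyte and T cell sums of the Sirpa-positive arrays, Cd79b in the B cell sums and Epcam in the thymic epithelial sums.

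In Sirpa-positive cells, maturation came with a rise of 4 synthesis enzymes, and no enzyme fell. Idi1, which isomerises isopentenyl diphosphate in the isoprenoid branch of the pathway, was 7.54-fold higher, Cyp51, the lanosterol demethylase, 3.02-fold, Pmvk, phosphomevalonate kinase, 2.45-fold, and Fdft1, squalene synthase, 2.44-fold. The 4 risers were 4 of 18 enzymes, against 4.35% of all genes higher and 2.53% lower in this comparison. Over the 18 enzymes the median difference was 0.66, beside 0.03 over all genes, and 15 of 18 differences were positive. The 2 mature arrays did not overlap the 2 immature arrays for 15 of the 18 enzymes (14 of them higher), beside 12357 of 24171 genes (6184 higher).

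Idi1 had 2.50 and 2.26 in Sirpa-positive mature cells, against -0.53 and -0.55 in Sirpa-positive immature cells. Both mature arrays lay far above both immature ones, and the difference was 2.91 ± 0.21 (SE; adjusted p = 0.00113). Cyp51 had -1.45 and -1.44 in Sirpa-positive mature cells, against -3.29 and -2.78 in Sirpa-positive immature cells. The mature pair was nearly equal and above both immature arrays (1.59 ± 0.23, adjusted p = 0.0101). Pmvk had 4.87 and 5.40 in Sirpa-positive mature cells, against 3.59 and 4.09 in Sirpa-positive immature cells. The groups did not overlap, although array 6 was well above array 1 (1.29 ± 0.27, adjusted p = 0.034). Fdft1 had 3.12 and 3.08 in Sirpa-positive mature cells, against 1.60 and 2.03 in Sirpa-positive immature cells, again without overlap (1.29 ± 0.21, adjusted p = 0.0158). A second, dimmer Fdft1 probe did not follow: it differed by -0.86 (adjusted p = 0.068), and the mean of both probes by 0.21 (adjusted p = 0.554), so the Fdft1 result rests on its brighter probe.

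The other 14 enzymes differed by -0.43 (Dhcr7, which reduces a double bond of the sterol B ring) to 1.53 (Hsd17b7, a keto-sterol reductase, adjusted p = 0.0522) without passing. Within that range Hmgcs1, the synthase that makes HMG-CoA, was at 0.72 (adjusted p = 0.0748), Sqle, squalene epoxidase, at 0.96 (adjusted p = 0.0686) and Fdps, farnesyl diphosphate synthase, at 0.97 (adjusted p = 0.0696). With background corrected by normexp and quantile normalization, 9 enzymes rose, the added ones being Hmgcs1, Sqle, Fdps, Hsd17b7 and the mevalonate kinase Mvk, and with the authors' values 8 did, the same without Mvk. Leaving out array 3 or array 6 left, of these 4 enzymes, only Idi1 past the threshold, with the adjusted p of Pmvk, Fdft1 and Cyp51 at 0.0713 to 0.2 without array 3 and 0.0649 to 0.161 without array 6. Fdft1 was also lost without array 1 (0.0627), and Pmvk without array 5 (0.0838) and without each of arrays 2, 4, 7 and 8 (0.0513 to 0.0528). Pmvk was lost with a block for slide row (0.0692) and with median scaling (0.0619) too. Idi1 kept its call in all 17 alternative fits (2.47 to 3.04, adjusted p at most 0.0152).

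In Sirpa-negative cells, maturation came with a rise of 6 synthesis enzymes and a fall of 1. Idi1 was 8.03-fold higher, Hsd17b7 3.86-fold, Fdft1 2.31-fold and Hmgcs1 2.15-fold. Msmo1, a methylsterol monooxygenase that takes part in removing methyl groups from the sterol ring, was 2.12-fold higher, and Tm7sf2, a sterol reductase, 1.71-fold. Dhcr7 was 1.81-fold lower. Beside these counts, 9.22% of all genes were higher and 7.24% lower. The median over the 18 enzymes was 0.58, beside -0.01 over all genes, and the groups did not overlap for 16 of 18 enzymes (11 higher), beside 13794 of 24171 genes (6529 higher).

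Idi1 had 2.41 and 2.12 in Sirpa-negative mature cells, against -0.81 and -0.66 in Sirpa-negative immature cells. The levels in mature cells were close to those of the Sirpa-positive mature arrays, and the difference was 3.01 ± 0.21 (adjusted p = 0.000539). Hsd17b7 had -0.37 and -0.97 in Sirpa-negative mature cells, against -3.11 and -2.13 in Sirpa-negative immature cells, where 1 of 2 arrays was well above background. The immature arrays were far apart but both lay below the mature ones (1.95 ± 0.36, adjusted p = 0.0128). A second Hsd17b7 probe rose in both subsets on maturation, by 1.16 (adjusted p = 0.0189) in Sirpa-positive and 1.68 (adjusted p = 0.00268) in Sirpa-negative cells, and it was higher in Sirpa-positive immature cells than in Sirpa-negative immature cells (0.91, adjusted p = 0.0281). Fdft1 had 3.02 and 2.96 in Sirpa-negative mature cells, against 1.75 and 1.80 in Sirpa-negative immature cells. Replicates were almost identical (1.21 ± 0.21, adjusted p = 0.0104), whereas the dimmer probe differed by 0.19 (adjusted p = 0.632).

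Hmgcs1 had 1.62 and 1.73 in Sirpa-negative mature cells, against 0.53 and 0.62 in Sirpa-negative immature cells (1.10 ± 0.19, adjusted p = 0.0102). Msmo1 had 2.09 and 1.82 in Sirpa-negative mature cells, against 0.92 and 0.83 in Sirpa-negative immature cells (1.08 ± 0.21, adjusted p = 0.0148). Both enzymes were lowest of the 4 groups in Sirpa-negative immature cells. Tm7sf2 had -1.55 and -1.53 in Sirpa-negative mature cells, against -2.15 and -2.48 in Sirpa-negative immature cells (0.77 ± 0.20, adjusted p = 0.0429). Dhcr7 had -0.97 and -0.99 in Sirpa-negative mature cells, against -0.24 and -0.01 in Sirpa-negative immature cells (-0.85 ± 0.19, adjusted p = 0.0245). Dhcr7 thus moved against the other called enzymes, with both mature arrays below both immature arrays.

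The other 11 enzymes differed by -0.52 (Nsdhl, a dehydrogenase of sterol demethylation) to 0.72 (Sqle). Acat2, the cytosolic thiolase at the start of the pathway, Fdps, Lss, the lanosterol synthase, Nsdhl and Ebp, a sterol isomerase, had negative values (-0.52 to -0.10), and Mvk, Pmvk, Mvd, mevalonate diphosphate decarboxylase, Sqle, Cyp51 and Sc5d, a sterol desaturase, positive ones (0.17 to 0.72). Idi1 passed in all 17 alternative fits, those with an array left out among them (2.46 to 3.15). Without array 4 the calls of Hmgcs1, Fdft1, Msmo1, Tm7sf2 and Dhcr7 were lost, and without array 2 those of Fdft1, Hsd17b7, Msmo1, Tm7sf2 and Dhcr7, at adjusted p between 0.0544 and 0.135. Msmo1 (0.0697), Tm7sf2 (0.197) and Dhcr7 (0.123) were lost without array 7, and Tm7sf2 (0.112) and Dhcr7 (0.0726) without array 8. Without array 3 or 5 Dhcr7 (0.0545) and Tm7sf2 (0.0846) were lost, and without array 1 or 6 Tm7sf2 (0.0564). Tm7sf2 also missed the threshold with the authors' values (adjusted p = 0.173), and with a block for slide row it and Dhcr7 did (0.0864 and 0.0564).

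Thymocyte and T cell markers moved in the same direction. Of 20 such genes 6 were higher in Sirpa-positive mature than in Sirpa-positive immature cells, and 15 in Sirpa-negative mature than in Sirpa-negative immature cells, and 0 were lower in either. Of all genes, 4.35% were higher and 2.53% lower in Sirpa-positive cells, and 9.22% and 7.24% in Sirpa-negative cells. Their summed level was 63.6 to 70.7 in Sirpa-positive mature and 47.3 to 51.8 in Sirpa-positive immature cells, and 63.0 to 67.3 in Sirpa-negative mature and 19.3 to 20.6 in Sirpa-negative immature cells. Cd4 weighs most in the Sirpa-positive sums and ran against the list, at 4.16 and 4.22 in Sirpa-positive mature and 5.07 and 4.73 in Sirpa-positive immature cells. Per gene, the median difference on maturation was 0.79 in Sirpa-positive and 1.47 in Sirpa-negative cells. Between Sirpa-positive and Sirpa-negative immature cells the median was 0.11. Among the 20, the recombinase gene Rag2 was well above background on 1 of 2 Sirpa-positive mature and 0 of 2 Sirpa-positive immature arrays, and on 2 of 2 Sirpa-negative mature and 1 of 2 Sirpa-negative immature arrays. Rag2 met the filter through Sirpa-negative mature cells alone, so a rise in Sirpa-negative cells was built into its being tested. The part of thymocytes and T cells in the enzyme differences was not tested. In bulk samples fewer cells of a type and less RNA per cell cannot be told apart.

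**Figure D2:**
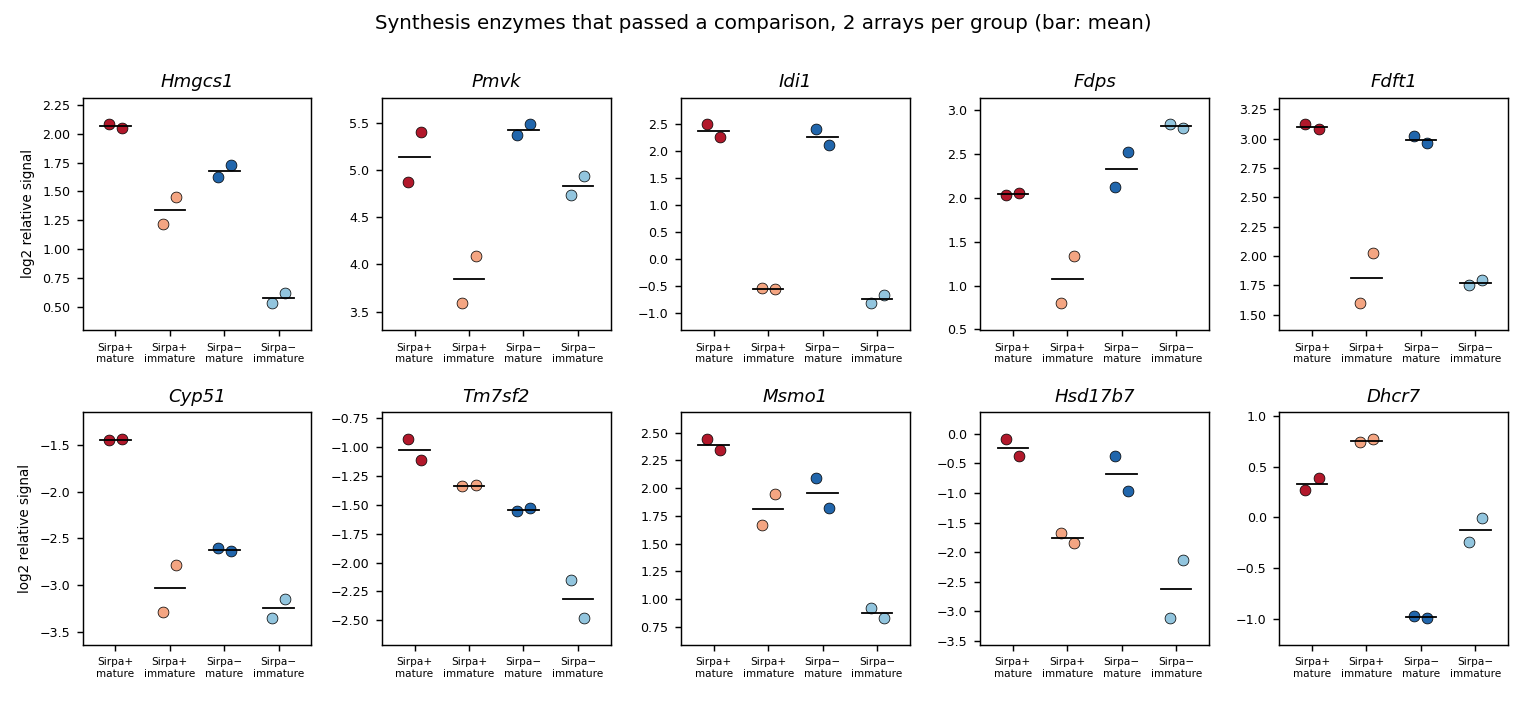
Log2 relative signal of the 10 synthesis enzymes that passed at least 1 comparison, in the 4 groups; each dot is 1 array and the bar is the mean of the 2 arrays. Idi1 stands at 2.12 to 2.50 on the 4 mature and at -0.81 to -0.53 on the 4 immature arrays, whereas Dhcr7 is lowest in Sirpa-negative mature cells.

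The promoter windows of 3 enzymes that rose are shown for the letters that SREBP2 and its partner NF-Y are known to bind. They come from RefSeq (GRCm38.p6) and run from 250 bases before to 50 after the annotated start, 5′ to 3′ on the gene's strand. Capitals mark matches on either strand of the sterol element TCACCCCAC or TCACNCCAC, of the CCAAT box, to which NF-Y binds (ATTGG on the other strand), and of the E-box CACGTG.
Idi1, chr13:8885356-8885655 (+ strand): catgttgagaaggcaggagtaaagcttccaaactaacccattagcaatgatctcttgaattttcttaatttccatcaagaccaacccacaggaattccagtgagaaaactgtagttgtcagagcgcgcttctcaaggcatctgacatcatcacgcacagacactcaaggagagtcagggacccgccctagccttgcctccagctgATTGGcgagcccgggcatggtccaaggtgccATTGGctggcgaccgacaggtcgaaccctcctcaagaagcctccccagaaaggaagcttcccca
Hmgcs1, chr13:119690101-119690400 (+ strand): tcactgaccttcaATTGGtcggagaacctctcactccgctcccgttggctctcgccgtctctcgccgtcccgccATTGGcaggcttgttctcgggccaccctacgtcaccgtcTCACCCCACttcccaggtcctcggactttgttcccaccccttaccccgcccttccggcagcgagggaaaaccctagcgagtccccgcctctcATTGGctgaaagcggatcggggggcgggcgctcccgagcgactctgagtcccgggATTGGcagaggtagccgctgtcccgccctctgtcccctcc
Hsd17b7, chr1:169969156-169969455 (- strand): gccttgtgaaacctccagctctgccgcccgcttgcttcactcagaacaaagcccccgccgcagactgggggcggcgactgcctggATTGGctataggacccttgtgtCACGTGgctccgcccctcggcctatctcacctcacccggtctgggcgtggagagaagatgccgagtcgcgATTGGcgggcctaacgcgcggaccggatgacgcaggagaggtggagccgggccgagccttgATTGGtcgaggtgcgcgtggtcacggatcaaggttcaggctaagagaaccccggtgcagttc
The Hmgcs1 window holds 1 sterol element, which counts for both forms since N stands for any base, and 4 CCAAT boxes; the Idi1 window holds 2 CCAAT boxes and the Hsd17b7 window 3 with 1 E-box. The table holds 28 of the 35 genes in 37 windows, among them 15 enzymes in 18 windows. A CCAAT box stood in 14 of those 18 enzyme windows, beside 37.4% of all 32851 windows. The sterol element TCACCCCAC stood in 1 of the 18, beside 0.551% of all windows, and the E-box in 3 of the 18, beside 7.15%. Fdps, Fdft1, Sqle, Stard4, Abcg1, Scd1 and Lpl were not matched. These are matches of letters, not measured sites.

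The 4 regulators and carriers passed in none of the comparisons by limma. These are Srebf2, which encodes SREBP2, Scap, Insig1, itself a known SREBP2 target, and the sterol carrier Stard4. On maturation all 4 differences were negative in both subsets. In Sirpa-positive cells they lay between -0.57 (Scap) and -0.07 (Insig1), 1 of 4 at an unadjusted p under 0.05. In Sirpa-negative cells they lay between -0.64 (Scap) and -0.28 (Stard4), 3 of 4 at an unadjusted p under 0.05, and the lowest adjusted p was 0.0835 for Insig1. Of all genes, 20.2% had an unadjusted limma p under 0.05 on maturation of Sirpa-positive and 29.8% on maturation of Sirpa-negative cells. Between the subsets the shares were 16.7% among mature and 24.6% among immature cells. Insig1 had -0.45 and -0.28 in Sirpa-negative mature cells, against 0.24 and 0.25 in Sirpa-negative immature cells, without overlap. Srebf2 had 2.45 and 2.79 in Sirpa-positive mature cells, against 2.73 and 2.92 in Sirpa-positive immature cells, which overlap, and 2.26 and 2.44 in Sirpa-negative mature cells, against 2.99 and 2.78 in Sirpa-negative immature cells, which do not. Its second probe differed by 0.08 and 0.11 instead. Between Sirpa-positive and Sirpa-negative cells the 4 genes differed by -0.28 to 0.36 among mature and by -0.35 to 0.00 among immature cells, with 0 of 4 at an unadjusted p under 0.05 in either, and Srebf2 and Stard4 had second probes of the opposite sign among mature cells.

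Of the LXR and efflux genes, 0 of 12 tested passed on maturation of Sirpa-positive cells by limma. Lpcat3, a phospholipid remodelling enzyme, was the 1 at an unadjusted p under 0.05 (-0.59), beside 20.2% of all genes. In Sirpa-negative cells 2 of 12 rose and 0 fell, beside 9.22% of all genes higher and 7.24% lower: Abcg1, a transporter that passes cholesterol to lipoprotein particles, was 3.23-fold higher and Mylip, a ubiquitin ligase that sends the LDL receptor to degradation, 1.78-fold. The median over the 12 genes was -0.04 in Sirpa-positive and 0.54 in Sirpa-negative cells.

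Abcg1 had 5.76 and 5.39 in Sirpa-negative mature cells, against 4.18 and 3.58 in Sirpa-negative immature cells (1.69 ± 0.30, adjusted p = 0.0114). In Sirpa-positive cells it had 5.39 and 5.28 on the mature arrays, against 5.39 and 4.78 on the immature arrays, which overlap (0.25 ± 0.30, adjusted p = 0.725). Sirpa-negative immature cells were thus the low group. Mylip had 1.36 and 1.15 in Sirpa-negative mature cells, against 0.49 and 0.35 in Sirpa-negative immature cells (0.83 ± 0.19, adjusted p = 0.0263), and 1.40 and 1.35 in Sirpa-positive mature cells, against 1.20 and 1.22 in Sirpa-positive immature cells (0.17 ± 0.19, adjusted p = 0.706). Again the Sirpa-negative immature arrays were the lowest 2 of the 8. The rise of Abcg1 was lost without array 7 (0.0548) and array 2 (0.0689). That of Mylip was lost without each of arrays 2, 3, 4, 5 and 7 (0.0579 to 0.121), with median scaling (0.0526) and with the slide row as a block (0.0601).

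The difference between the 2 maturation effects was tested as an interaction. No member and 0 of 24171 genes (0.0%) passed by limma, with 5 of 34 members and 8.06% of all genes at an unadjusted p under 0.05. The 5 were Fdps (1.46 ± 0.36, adjusted p = 0.235), Cyp51 (0.96 ± 0.33, adjusted p = 0.471), Abcg1 (-1.44 ± 0.43, adjusted p = 0.384), Mylip (-0.67 ± 0.27, adjusted p = 0.575) and Abca1 (-1.86 ± 0.75, adjusted p = 0.569). A gene that passed in 1 subset and missed in the other was therefore not shown to respond differently in the 2 subsets. The plot of maturation differences gives both values for each gene.

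**Figure D3:**
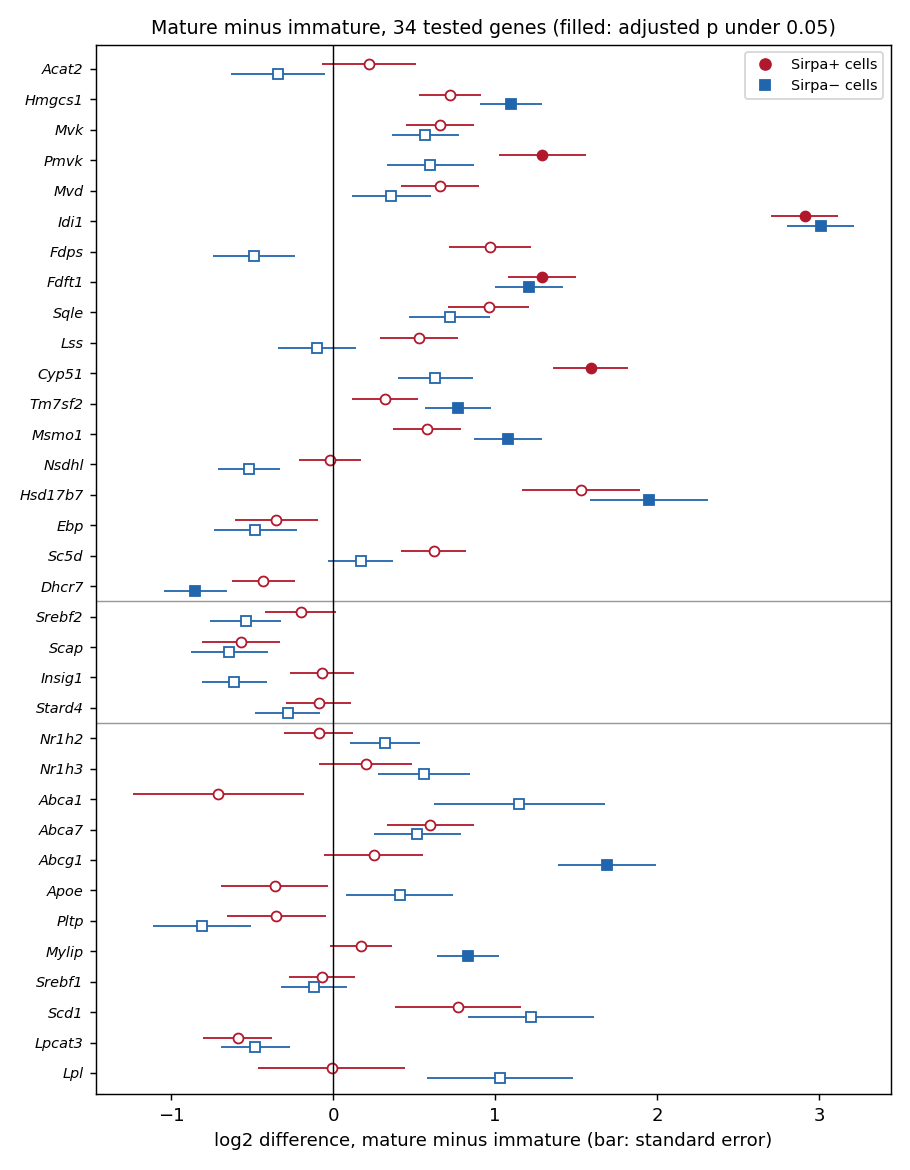
Log2 difference, mature minus immature, of the 34 tested genes in Sirpa-positive (circles) and Sirpa-negative cells (squares), with standard errors from limma; filled symbols have an adjusted p under 0.05 and grey lines part the enzymes, the regulators and carriers, and the LXR and efflux genes. Idi1 lies near 3 in both subsets (2.91 and 3.01), and the 4 regulators and carriers lie at or below -0.07.

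The widest differences among the 35 genes lay between the subsets and in the LXR and efflux genes. Among mature cells 5 of 12 were higher in Sirpa-positive cells than in Sirpa-negative cells and 0 lower, beside 3.38% of all genes higher and 2.1% lower. Among immature cells 7 of 12 were higher and 0 lower, beside 7.22% higher and 4.37% lower. Both counts hold Abca1 and Lpl, whose subset difference was built into their being tested, and without them 3 of 10 were higher among mature and 5 of 10 among immature cells. The 5 genes of both comparisons were Nr1h3, the gene of LXR alpha, Abca1, the transporter that loads cholesterol onto apolipoprotein A-I, Apoe, the apolipoprotein E gene, Pltp, a phospholipid transfer protein, and Lpl, lipoprotein lipase. Abcg1 and Mylip passed among immature cells as well. The median over the 12 genes was 0.45 among mature and 1.0 among immature cells, beside -0.07 and -0.11 over all genes.

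Apoe had 8.01 and 8.25 in Sirpa-positive mature cells, against 0.89 and 1.19 in Sirpa-negative mature cells (7.09 ± 0.33, 136-fold, adjusted p = 8.71e-05). Among immature cells it had 8.84 and 8.15 in Sirpa-positive cells, against 0.98 and 0.28 in Sirpa-negative cells (7.87 ± 0.33, 233-fold, adjusted p = 3.37e-05). All 4 Sirpa-positive arrays lay far above all 4 Sirpa-negative arrays.

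Abca1 had 2.69 and 2.10 in Sirpa-positive mature cells, against -2.41 and -3.73 in Sirpa-negative mature cells, where 1 of 2 arrays was well above background (5.47 ± 0.53, 44.3-fold, adjusted p = 0.00142). Among immature cells it had 3.49 and 2.73 in Sirpa-positive cells, against -3.74 and -4.70 in Sirpa-negative cells, neither of them well above background (7.33 ± 0.53, adjusted p = 0.00021). The fold of 161 takes these dim signals as they stand and is no firm lower bound. Where an at-least fold is given below, the dim arrays entered at their own signal or at the dimmest signal that any probe above background reached there, whichever was higher. Such a fold is a lower bound under this scaling only. Lpl had 0.63 and 0.39 in Sirpa-positive mature cells, against -2.43 and -3.52 in Sirpa-negative mature cells, 1 of 2 well above background (3.49 ± 0.45, 11.2-fold, adjusted p = 0.00504). Among immature cells it had 0.78 and 0.26 in Sirpa-positive cells, against -3.52 and -4.50 in Sirpa-negative cells, both not well above background (4.53 ± 0.45, adjusted p = 0.000846). The fold of 23.1 likewise takes the dim signals as they stand. For both genes the Sirpa-negative values are close to what the array can measure.

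Nr1h3 had 2.96 and 2.74 in Sirpa-positive mature cells, against -1.01 and -1.05 in Sirpa-negative mature cells (3.88 ± 0.29, 14.7-fold, adjusted p = 0.000494). Among immature cells it had 2.68 and 2.62 in Sirpa-positive cells, against -1.18 and -2.0 in Sirpa-negative cells (4.24 ± 0.29, 18.9-fold, adjusted p = 0.000154). A second Nr1h3 probe gave larger differences, 4.89 among mature and 6.46 among immature cells, and rose on maturation of Sirpa-negative cells (1.78, adjusted p = 0.0103), which the brighter probe did not (0.56, adjusted p = 0.243). Nr1h2, the gene of the other LXR receptor, LXR beta, did not share the pattern. It lay between 0.70 and 1.21 on all 8 arrays and differed by -0.35 ± 0.21 among mature and 0.06 ± 0.21 among immature cells (adjusted p = 0.517 and 0.9).

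Pltp had 5.61 and 5.46 in Sirpa-positive mature cells, against 1.50 and 0.69 in Sirpa-negative mature cells (4.44 ± 0.31, 21.7-fold, adjusted p = 0.000378). Among immature cells it had 6.09 and 5.68 in Sirpa-positive cells, against 2.01 and 1.81 in Sirpa-negative cells (3.98 ± 0.31, 15.8-fold, adjusted p = 0.000281). Abcg1 differed less: 1.20 ± 0.30 among immature cells (2.30-fold, adjusted p = 0.046) and -0.24 ± 0.30 among mature cells (adjusted p = 0.822), as its levels given above show. Mylip differed by 0.79 ± 0.19 among immature cells (1.73-fold, adjusted p = 0.0391) and by 0.12 ± 0.19 among mature cells (adjusted p = 0.865).

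The other 5 LXR and efflux genes passed in neither subset comparison. Among them, Srebf1 and Scd1 are both known LXR targets of fatty acid synthesis in liver. Srebf1 had nearly the same level in all groups, between -1.78 and -1.45 on the 8 arrays. Scd1 lay between -0.26 and 0.77 on the 4 mature and between -1.16 and -0.43 on the 4 immature arrays, without passing on maturation of either subset. Abca7, a lipid transporter related to Abca1, lay between -0.57 and 0.50. Lpcat3, an LXR target in liver and gut, was at 0.67 ± 0.21 among mature (adjusted p = 0.153) and 0.78 ± 0.21 among immature cells (adjusted p = 0.0614), without overlap in either. Nr1h3, Apoe and Pltp kept their subset calls in all 17 alternative fits. The sizes for Abca1 and Lpl varied: over the 16 fits that held them Abca1 ranged from 3.81 to 6.13 among mature and from 4.73 to 7.81 among immature cells, and Lpl from 2.10 to 4.11 and from 2.37 to 5.02. The lowest of each came with normexp and quantile normalization, so their folds hold only for scaling by the 75th percentile. The Abcg1 call among immature cells was lost without any 1 of the 8 arrays (0.0503 to 0.293). That of Mylip was lost without arrays 1, 3, 4, 5, 6 and 7 (0.0561 to 0.202). With a block for slide row both were lost as well (0.0708 and 0.0898).

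**Figure D4:**
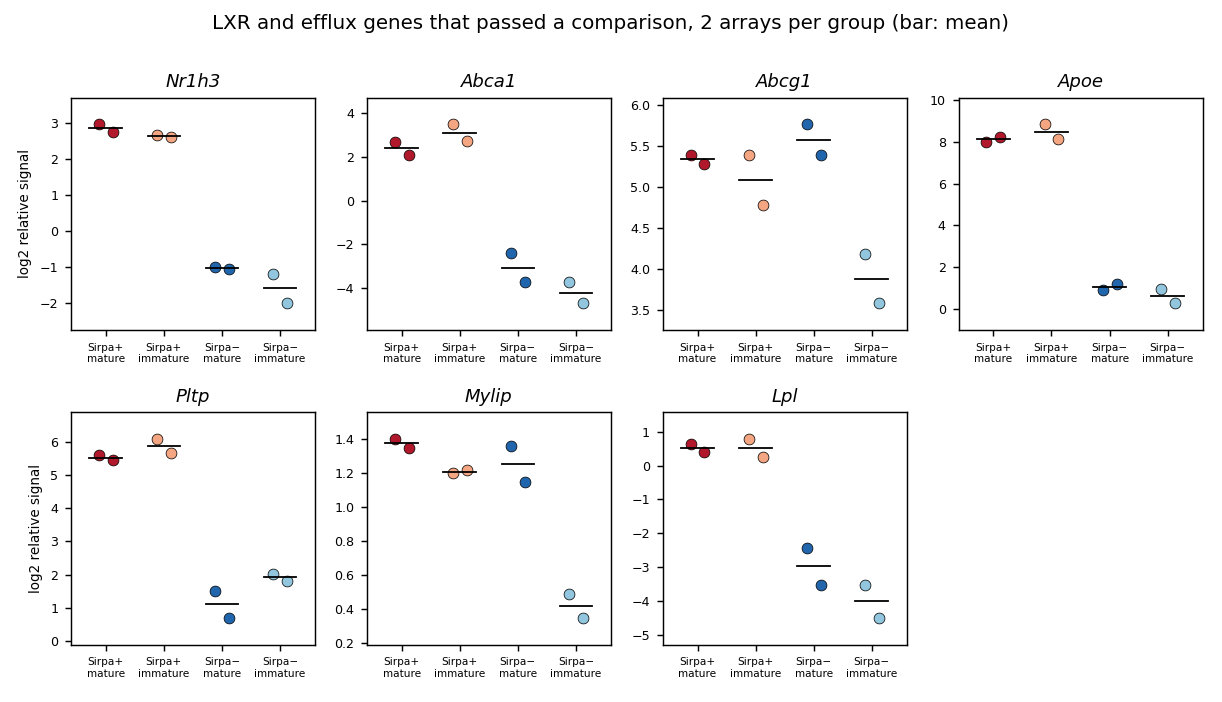
Log2 relative signal of the 7 LXR and efflux genes that passed at least 1 comparison, in the 4 groups; each dot is 1 array and the bar is the mean of the 2 arrays. For Nr1h3, Abca1, Apoe, Pltp and Lpl all 4 Sirpa-positive arrays lie above all 4 Sirpa-negative arrays, whereas Abcg1 and Mylip are lowest in Sirpa-negative immature cells.

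Macrophage and monocyte markers differed in the same direction as these genes. Of 19 tested, 14 were higher in Sirpa-positive mature than in Sirpa-negative mature cells, and 19 in Sirpa-positive immature than in Sirpa-negative immature cells, and 0 were lower. The marker counts here stand beside 3.38% of all genes higher and 2.1% lower among mature cells, and 7.22% and 4.37% among immature cells. On maturation the shares were 4.35% higher and 2.53% lower in Sirpa-positive cells, and 9.22% and 7.24% in Sirpa-negative cells. Their summed level was 532 to 541 in Sirpa-positive mature and 22.7 to 28.8 in Sirpa-negative mature cells, and 623 to 817 in Sirpa-positive immature and 19.7 to 21.1 in Sirpa-negative immature cells. The complement gene C1qa had 7.18 and 7.12 in Sirpa-positive mature cells, against -1.71 and -1.16 in Sirpa-negative mature cells, and 7.71 and 7.40 in Sirpa-positive immature cells, against -1.95 and -3.05 in Sirpa-negative immature cells. The macrophage receptor genes Mrc1 and Cd163 were well above background on none of the 4 Sirpa-negative arrays, and Mertk and C1qc on 1 of 2 Sirpa-negative mature and 0 of 2 Sirpa-negative immature arrays. Mrc1, Cd163, Mertk and C1qc thus met the filter through Sirpa-positive groups alone. A subset difference was built into their being tested, and they are among the 19. Cd163 met it through Sirpa-positive immature cells alone, which builds in a fall on maturation too. The part of macrophages in the higher efflux genes was not tested. On maturation 0 of the 19 rose and 2 fell in Sirpa-positive cells, and 4 rose and 1 fell in Sirpa-negative cells. Summed B cell markers were at 7.47 to 7.67 in Sirpa-positive mature and 2.11 to 2.50 in Sirpa-negative mature cells, and at 4.67 to 4.82 in Sirpa-positive immature and 1.08 to 1.75 in Sirpa-negative immature cells. Of the 4 tested, 1 was higher and 0 lower among mature cells, 1 higher and 1 lower among immature cells, and 1 rose in each maturation. Cd79b weighs most in these sums, and per gene the median difference between the subsets was -0.21 among mature and -0.53 among immature cells. Ms4a1 had -5.9 and -6.71 in Sirpa-positive immature cells, against -2.13 and -2.58 in Sirpa-negative immature cells. It met the filter through the Sirpa-negative groups alone, so a lower value in Sirpa-positive cells was built in. Summed thymic epithelial markers were at 5.47 to 6.43 in Sirpa-positive mature and 5.73 to 7.07 in Sirpa-negative mature cells, and at 8.90 to 13.7 in Sirpa-positive immature and 2.83 to 3.57 in Sirpa-negative immature cells. Of these 5, 0 passed among mature cells by limma (1 at an unadjusted p under 0.05) and 2 were higher among immature cells, 1 rose and 1 fell on maturation of Sirpa-positive cells, and 2 rose on that of Sirpa-negative cells. Epcam weighs most in these sums, at 2.83 and 3.52 in Sirpa-positive immature and 1.28 and 0.81 in Sirpa-negative immature cells. Per gene the median difference between the subsets was -0.07 among mature and 0.34 among immature cells. The part of either cell type was not tested. Of the 20 thymocyte and T cell markers 1 was higher and 3 lower in Sirpa-positive mature cells than in Sirpa-negative mature cells, and 2 were higher and 0 lower in Sirpa-positive immature cells than in Sirpa-negative immature cells.

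The promoter window of Abca1, a textbook LXR target, is shown. That gene had the widest range of the transporters, part of it built in by the filter, and its low end was not well above background. The capitals mark an E-box, the only match in this window among the exact letters searched.
Abca1, chr4:53159846-53160145 (- strand): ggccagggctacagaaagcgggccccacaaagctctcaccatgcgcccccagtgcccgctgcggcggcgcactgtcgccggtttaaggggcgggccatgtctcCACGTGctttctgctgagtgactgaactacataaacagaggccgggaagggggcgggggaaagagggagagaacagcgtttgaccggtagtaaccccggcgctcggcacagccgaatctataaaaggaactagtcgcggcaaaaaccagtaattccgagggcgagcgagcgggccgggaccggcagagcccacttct
The LXR element searched, AGGTCA repeated once after a spacer of 4 bases, stood in 0 of 15 windows of 10 LXR and efflux genes and in 5 of all 32851 windows (0.0152%). No match says only that these letters are not in this window.

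The synthesis enzymes differed less between the subsets. Among mature cells 2 of 18 were higher in Sirpa-positive cells than in Sirpa-negative cells, and 0 were lower, beside 3.38% of all genes higher and 2.1% lower: Dhcr7 (2.48-fold) and Cyp51 (2.26-fold). Dhcr7 had 0.27 and 0.39 in Sirpa-positive mature cells, against -0.97 and -0.99 in Sirpa-negative mature cells (1.31 ± 0.19, adjusted p = 0.00898). Cyp51 had -1.45 and -1.44 in Sirpa-positive mature cells, against -2.60 and -2.64 in Sirpa-negative mature cells (1.18 ± 0.23, adjusted p = 0.0299). Replicates of both genes differed by far less than the groups. Without array 6 or 8 both calls were lost (0.0515 to 0.127), and without array 1 or 2 that of Cyp51 (0.104 each). Cyp51 also missed the threshold with the authors' values (0.0747) and with the slide row as a block (0.0511). The other 16 lay between -0.44 (Sqle) and 0.58 (Mvd), and Idi1 was at 0.11 ± 0.21 (adjusted p = 0.893).

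Among immature cells 4 of 18 enzymes were higher in Sirpa-positive cells than in Sirpa-negative cells and 1 was lower, beside 7.22% of all genes higher and 4.37% lower. The lower gene was Fdps, whose product supplies farnesyl groups both for squalene and for protein prenylation. Fdps had 0.80 and 1.34 in Sirpa-positive immature cells, against 2.84 and 2.80 in Sirpa-negative immature cells (-1.74 ± 0.25, 3.35-fold lower, adjusted p = 0.00455). Sirpa-positive immature cells held the lowest 2 arrays of the 8, and the call was kept in all 17 alternative fits (-2.02 to -1.47).

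The 4 higher enzymes were Tm7sf2, Msmo1, Dhcr7 and Hmgcs1. Tm7sf2 had -1.34 and -1.33 in Sirpa-positive immature cells, against -2.15 and -2.48 in Sirpa-negative immature cells (0.98 ± 0.20, adjusted p = 0.0222). Msmo1 had 1.67 and 1.95 in Sirpa-positive immature cells, against 0.92 and 0.83 in Sirpa-negative immature cells (0.93 ± 0.21, adjusted p = 0.0299). Dhcr7 had 0.74 and 0.77 in Sirpa-positive immature cells, against -0.24 and -0.01 in Sirpa-negative immature cells (0.88 ± 0.19, adjusted p = 0.0259). Hmgcs1 had 1.22 and 1.45 in Sirpa-positive immature cells, against 0.53 and 0.62 in Sirpa-negative immature cells (0.76 ± 0.19, adjusted p = 0.0455). None of the 4 overlapped between the groups, and neither did 14320 of all 24171 genes in this comparison. All 4 calls were lost without array 3, 5 or 7 (adjusted p 0.062 to 0.232), all except that of Tm7sf2 without array 4 (0.102 to 0.188), and that of Hmgcs1 also without arrays 1, 2, 6 and 8 (0.0598 to 0.063). With the slide row as a block all 4 were lost (0.053 to 0.0986).

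The other 13 enzymes lay between -0.99 (Pmvk, adjusted p = 0.0594) and 0.86 (Hsd17b7, adjusted p = 0.2). The dimmer Fdft1 probe passed in both subset comparisons, at 1.03 (adjusted p = 0.0453) among mature and 2.07 (adjusted p = 0.00125) among immature cells, where the brighter one was at 0.11 and 0.03. The 2 probes of Nsdhl had opposite signs among immature cells (-0.21 and 1.30), and neither passed. The median over the 18 enzymes was 0.33 among mature and 0.21 among immature cells.

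**Figure D5:**
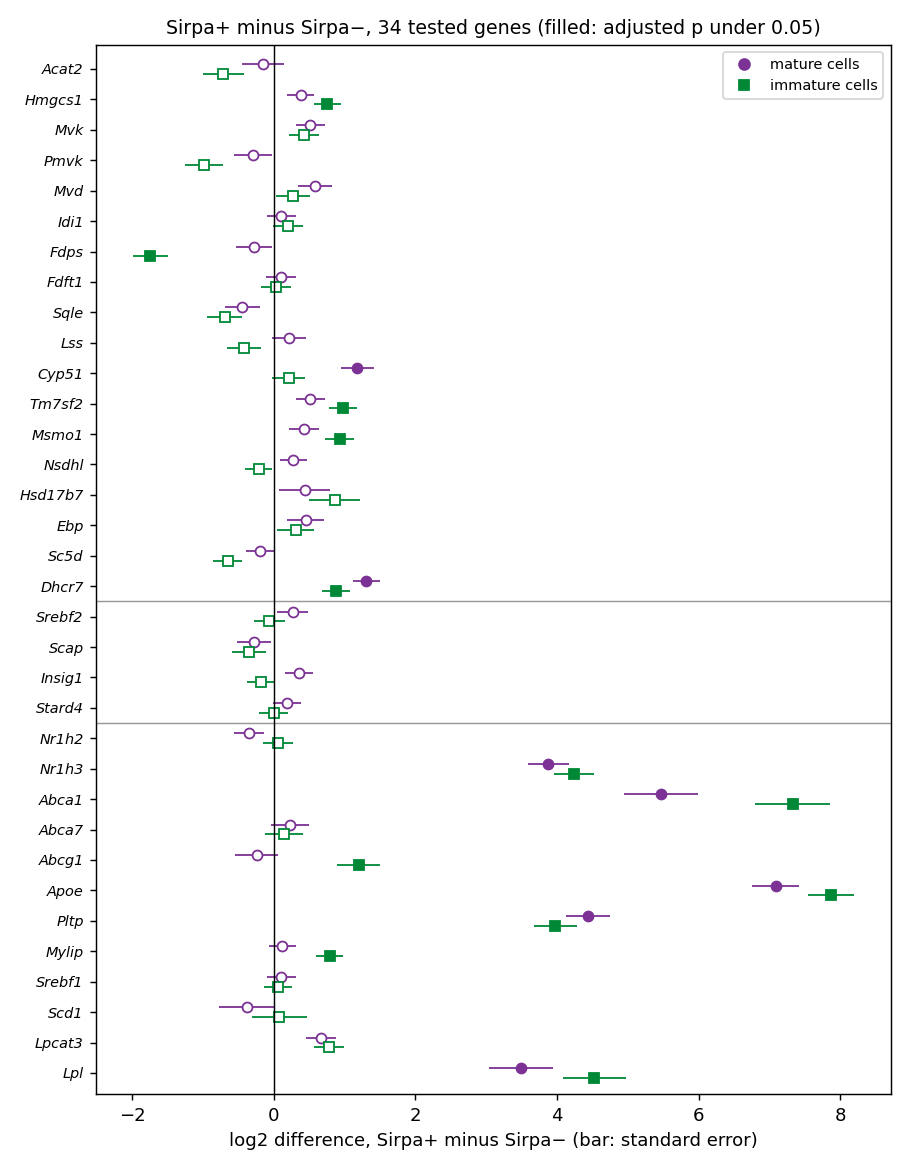
Log2 difference, Sirpa-positive minus Sirpa-negative, of the 34 tested genes in mature (circles) and immature cells (squares), with standard errors from limma; filled symbols have an adjusted p under 0.05. Nr1h3, Abca1, Apoe, Pltp and Lpl lie between 3.49 and 7.87, and Fdps among immature cells lies at -1.74.

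Genes of neighbouring pathways are given for the setting. Their counts stand beside 4.35% of all genes higher and 2.53% lower on maturation of Sirpa-positive cells and 9.22% higher and 7.24% lower on that of Sirpa-negative cells. Between the subsets the shares were 3.38% higher and 2.1% lower among mature and 7.22% higher and 4.37% lower among immature cells. Of 15 fatty acid synthesis genes, which SREBP1 mainly controls, 1 fell on maturation of Sirpa-positive cells (Fads1, a fatty acid desaturase, -1.23 ± 0.24, adjusted p = 0.0283). On maturation of Sirpa-negative cells 6 fell and 1 rose. The fallers with the smallest p were Elovl6, a fatty acid elongase (-2.19 ± 0.225, adjusted p = 0.00145), and Scd2, a desaturase (-1.47 ± 0.29, adjusted p = 0.0158), and the riser was Me1, malic enzyme (adjusted p = 0.0043). Me1 had -1.21 and 0.14 in Sirpa-negative mature cells, against -3.58 and -4.33 in Sirpa-negative immature cells, where neither array was well above background. It met the filter through the mature groups alone, so a rise was built into its being tested. Fasn and Gpam, also among the 15, met it through immature groups alone, which builds in a fall for them. Elovl6 had -2.70 and -2.38 in Sirpa-negative mature cells, against -0.23 and -0.47 in Sirpa-negative immature cells. Between the subsets none of the 15 passed by limma among mature cells (2 at an unadjusted p under 0.05), and Elovl6 was lower in Sirpa-positive immature cells than in Sirpa-negative immature cells (-1.86 ± 0.225, adjusted p = 0.00204).

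Of 16 tested genes of cholesterol uptake, storage and lysosomal release, Scarb1, the HDL receptor, fell on maturation in both subsets (-1.32 ± 0.20, adjusted p = 0.0124 in Sirpa-positive and -1.87 ± 0.20, adjusted p = 0.00171 in Sirpa-negative cells). Scarb1 had -0.57 and -0.88 in Sirpa-positive mature cells, against 0.65 and 0.54 in Sirpa-positive immature cells, and -0.58 and -0.43 in Sirpa-negative mature cells, against 1.36 and 1.37 in Sirpa-negative immature cells. In Sirpa-positive cells Lrp1, a receptor for apolipoprotein E, fell too, which made 2 fallers and 0 risers. In Sirpa-negative cells 3 fell, the second being Lipa, the lysosomal acid lipase (-0.90 ± 0.22, adjusted p = 0.0301), and Npc2, a lysosomal sterol carrier, rose (0.86 ± 0.22, adjusted p = 0.0374). Between the subsets 5 were higher and 2 lower in Sirpa-positive mature cells, and 6 higher and 3 lower in Sirpa-positive immature cells. Soat2, among the 16, met the filter through the Sirpa-negative groups alone, so a lower value in Sirpa-positive cells was built into its being tested. Nceh1, a cholesteryl ester hydrolase, differed by 3.28 and 3.70, and Msr1, a scavenger receptor, was at least 73.6-fold higher among mature and at least 64.7-fold higher among immature cells. Msr1 was well above background on 0 of 4 Sirpa-negative arrays and met the filter through the Sirpa-positive groups alone, so this difference too was built into its being tested. Cd36, a fatty acid and lipoprotein receptor, ran the other way at -3.24 and -4.54 (adjusted p = 0.00114 and 0.000137).

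Of 8 other LXR partners and targets, Rxra, the common partner receptor of LXR, fell on maturation in both subsets (-1.36 ± 0.22, adjusted p = 0.0138 in Sirpa-positive and -1.45 ± 0.22, adjusted p = 0.0059 in Sirpa-negative cells). Rxra had -0.36 and -0.22 in Sirpa-positive mature cells, against 1.12 and 1.03 in Sirpa-positive immature cells, and -0.47 and -0.11 in Sirpa-negative mature cells, against 1.29 and 1.03 in Sirpa-negative immature cells. Smpdl3a, a sphingomyelinase-like gene of this list, rose in both (0.90 and 0.78). Control of Smpdl3a by LXR in these cells was not tested. Counts on maturation were 1 riser and 2 fallers in Sirpa-positive cells, where Apoc1, an apolipoprotein gene beside Apoe, fell (-1.72 ± 0.26), and 2 risers and 1 faller in Sirpa-negative cells, where Tspo, a mitochondrial cholesterol-binding protein, rose (0.88 ± 0.22). Between the subsets Apoc1 alone passed, at 4.59 ± 0.26 among mature and 6.04 ± 0.26 among immature cells (adjusted p = 0.000153 and 3.44e-05).

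Of 5 tested genes of oxysterol metabolism and sensing, Cyp7b1, an oxysterol hydroxylase, fell on maturation of Sirpa-positive cells (-1.51 ± 0.26, adjusted p = 0.0187), and Gpr183, the receptor for oxysterols made from 25-hydroxycholesterol, rose on maturation of Sirpa-negative cells (1.31 ± 0.27, adjusted p = 0.0184). In both subset comparisons Gpr183 and Cyp7b1, which likewise met the filter through the Sirpa-positive groups alone, were higher in Sirpa-positive cells and Cyp27a1, a sterol hydroxylase, was lower (-1.29 among mature and -1.06 among immature cells). Of 8 other SREBP processing genes, 0 passed on maturation of Sirpa-positive cells by limma (1 at an unadjusted p under 0.05) and Tmem97, a sterol-responsive membrane protein, fell on maturation of Sirpa-negative cells (-1.39 ± 0.27, adjusted p = 0.0138). Tmem97 was higher in Sirpa-positive mature cells than in Sirpa-negative mature cells (1.54 ± 0.27, adjusted p = 0.0177), and Insig2 and Erlin1, which hold SCAP in place, were lower in Sirpa-positive immature cells than in Sirpa-negative immature cells (-1.45 and -1.30, adjusted p = 0.0047 and 0.0316).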

How the data were processed

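RNA of 8 samples was measured on 1-colour Agilent arrays. The deposited scanner files hold spot intensity values, per the file headers written by Feature Extraction 10.7.3.1; the submitters' processing notes give version 10.5. A value table that the authors deposited is on the log2 scale, with nearly equal distributions on all 8 arrays, as quantile normalization gives; the submitters' processing notes name limma for them.

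Here the measurement was log2 of the processed signal minus each array's 75th percentile. Spots marked as outliers, 110 to 270 on an array, were dropped, and repeat spots of 1 probe were averaged. Of 55681 probes, 26582 were given a symbol by accession from RefSeq's GRCm38.p6 gene table, and 33715 were kept, each clearing background on the 2 arrays of some group. The probe with the highest mean stood for a gene (24171 genes or accessions). limma 3.58.1 (R 4.3.3) fitted 4 group means over all 8 arrays (4 residual and 3.26 prior degrees of freedom), with Benjamini-Hochberg adjustment at 0.05. The 44 genes missing a value on some array were fitted on the others. Adjusted p-values of second probes come from a fit of all kept probes. The fit was tested on simulated data. With 2 arrays per group, their number limits the precision.

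The members and all lists were chosen with earlier results of these data known. Every member is given; of other lists, up to 2 risers and 2 fallers with the smallest p per comparison. The lists were fatty acid synthesis, uptake and storage, other LXR partners, oxysterols and SREBP processing, and markers of 4 other cell types and of dendritic cells. Alternatives were normexp (offset 50) on the median spot and background signals, since the files hold no mean spot signal, with quantile normalization, quantile normalization alone, median scaling, the authors' values, other filters, the mean of probes, the slide row as a block and within each row, only the compared arrays, and each array left out. Some results are not reported here.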

Additional observations from a re-analysis of the deposited data

How the results depend on the processing

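The calls of Idi1 on maturation of both subsets, of Nr1h3, Apoe and Pltp between the subsets in both states, and of Fdps among immature cells held in all 17 alternative fits. No tested gene of the 34 with a call changed sign under any alternative, and all calls had the same sign in both slide rows.

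Counts of members that passed moved as follows, the cause not being tested. On maturation of Sirpa-positive cells 4 members passed; 9 did with normexp and quantile normalization, 8 with the authors' values, 7 with probes above background on all 8 arrays, 1 with no filter on dim probes, and 1 to 4 with an array left out. On maturation of Sirpa-negative cells 9 passed; 4 did with no filter and 4 with the compared arrays alone, and 2 to 8 with an array left out. Among mature cells 7 differed between the subsets, 4 with the all-array filter, which removes Abca1, Lpl and Cyp51 from the test, and 5 to 7 with an array left out. Among immature cells 12 differed, 6 with no filter, 6 with the slide row as a block, 7 with the compared arrays alone, and 6 to 10 with an array left out.

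Counts over all genes moved too. For maturation of Sirpa-positive cells 1663 passed, 430 with no filter, 1063 with the row block and 394 to 1537 with an array left out. For maturation of Sirpa-negative cells 3979 passed, 1615 with no filter, 2047 with the compared arrays alone and 1778 to 3658 with an array left out. For the subset difference among mature cells 1324 passed, 579 with no filter and 635 to 1264 with an array left out. Among immature cells 2803 passed, 1557 with no filter and 1232 to 2769 with an array left out. For the interaction 0 passed, 176 with normexp and quantile normalization, 148 with the authors' values, 101 with the all-array filter, 4 with the mean of probes, 1 with median scaling and 0 to 1 with an array left out; none was a member. The share of calls that were higher on maturation of Sirpa-positive cells was 63.2%, and 51.0% with normexp and quantile normalization. Median scaling moved the median of all genes on maturation of Sirpa-negative cells to -0.13, against -0.01.

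With an array left out, the lone array of its group is assumed to vary like the other groups. The fit on the compared arrays alone was not run for the interaction, which uses all 4 groups. No paired analysis was possible because the array numbers 1 to 8 in the titles are all distinct and no groups share one; the slide row, with 1 array of every group in each, was used as a block instead. Dim probes limit Abca1 and Lpl in Sirpa-negative cells, and levels of different probes cannot be compared.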
